A study of Mus musculus with 4 samples.

Results

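Transcripts of 10 mast cell and basophil genes were followed in bone-marrow progenitors of mice with and without Asxl1. The genes were chosen by symbol from 17956 single-locus rows of the deposited table, and each of the 10 matched 1 row that no other gene name shares. They are the serine protease genes Prss34, Mcpt8, Gzmb, Cma1 and Tpsb2, the carboxypeptidase gene Cpa3, the histidine decarboxylase gene Hdc, and the receptor genes Fcer1a, Ms4a2 and Il1rl1. The libraries came from Lin-Kit+ cells, the marrow fraction without surface markers of mature blood lineages and with the Kit receptor. Each library was made from 2000000 such cells of C57BL/6 mice, with 2 wild-type (WT) and 2 Asxl1-/- (KO) libraries. Neither age, sex nor number of animals per library is labelled, and no further allele or treatment is named for either group.

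Basophils and mast cells arise from granulocyte progenitors in the marrow. Basophils circulate as mature cells, whereas mast cells complete their maturation in tissues. Both display the high-affinity IgE receptor, whose alpha chain (Fcer1a) binds IgE, whose beta chain (Ms4a2) amplifies the signal and whose gamma chain (Fcer1g) is shared with other Fc receptors. Crosslinking of the receptor releases histamine and granule proteases. In mice Mcpt8 and Prss34 encode basophil proteases, while Cma1 (chymase), Tpsb2 (a tryptase) and Mcpt4 (a chymase) are typical of mast cells of connective tissue. Cpa3, Hdc and the interleukin-33 receptor gene Il1rl1 are active in both cell types and also in immature progenitors.

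Prss34, Mcpt8, Ms4a2, Fcer1a and Cpa3 fell in KO, to between 39.1% and 80.6% of the WT mean. Hdc, Il1rl1 and Tpsb2 had both KO values above both WT values without passing the threshold, and for Gzmb and Cma1 the genotypes overlapped. So 5 of the 10 genes were lower and 0 higher at an adjusted p under 0.05 (limma across all loci). With the replicate number as a block, 5 were lower and 3 higher (Hdc, Il1rl1 and Tpsb2). At an unadjusted p under 0.05 there were 8 of the 10, Tpsb2 among them, against 37.7% of all tested loci. Tpsb2 passed the filter on low values (at least 10 in at least 2 libraries) through the KO libraries alone. The filter thus favoured its place in both counts. Of all 13764 tested loci, 8.97% were lower, 11.9% higher and 20.9% either. The median log2 fold change was -0.10 over the 10 genes and -0.01 over all tested loci. In bulk RNA, fewer cells of a type and less RNA per cell cannot be told apart.

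Asxl1, the targeted gene, matched the labels and stood at 9742 and 9472 in WT and 146 and 135 in KO. The libraries held 46597871 and 49764454 reads in WT and 83586916 and 76688583 in KO. Kit itself had a WT mean above that of 95.5% of tested loci, and the T-cell genes Cd3e, Cd3d and Cd8a stood at or below 66.0 in every library. Other NK and cytotoxic T markers were higher, among them Il2rb (246 to 518) and Nkg7 (5241 to 7061). Replicate 1 of each genotype had high Xist (89290 to 103006), against 2123 in WT replicate 2 and 147 in KO replicate 2. Replicate 2 of each genotype had high Ddx3y (7385 to 7947), so sex differs within each genotype. Differences between same-numbered libraries are therefore given as well. The labels do not say that replicates were separate animals, and p-values measure the spread between these libraries only. With upper-quartile scaling 42.6% of the calls over all loci were higher in KO, against 57.0% with the deposited scaling.

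The promoters of the 5 genes that fell are shown because these genes moved in 1 direction. Each sequence is RefSeq, GRCm38.p6, 5′ to 3′ on the strand of the gene, with 250 bases before the annotated start and 50 after it. Capitals mark GATAA, or TTATC where the motif lies on the other strand, a core recognised by GATA factors.
Prss34, chr17:25298144-25298443, plus strand: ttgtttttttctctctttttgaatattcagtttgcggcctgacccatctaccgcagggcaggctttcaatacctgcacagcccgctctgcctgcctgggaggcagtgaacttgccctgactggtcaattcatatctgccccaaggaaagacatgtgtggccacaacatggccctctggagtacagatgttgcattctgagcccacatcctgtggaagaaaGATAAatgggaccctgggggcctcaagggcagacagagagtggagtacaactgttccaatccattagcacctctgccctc
Mcpt8, chr14:56085148-56085447, minus strand: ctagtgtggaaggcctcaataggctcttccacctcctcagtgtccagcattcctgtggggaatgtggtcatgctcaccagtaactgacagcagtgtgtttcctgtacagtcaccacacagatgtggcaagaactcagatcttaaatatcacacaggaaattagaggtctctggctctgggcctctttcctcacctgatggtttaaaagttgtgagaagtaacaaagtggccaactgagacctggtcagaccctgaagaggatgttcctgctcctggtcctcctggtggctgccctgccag
Ms4a2, chr19:11623670-11623969, minus strand: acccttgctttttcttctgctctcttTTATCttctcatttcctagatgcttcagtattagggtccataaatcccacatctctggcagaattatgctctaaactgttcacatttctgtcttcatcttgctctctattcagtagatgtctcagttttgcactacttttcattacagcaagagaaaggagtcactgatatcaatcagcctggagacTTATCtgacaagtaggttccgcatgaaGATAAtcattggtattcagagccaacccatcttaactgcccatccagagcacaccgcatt
Fcer1a, chr1:173227180-173227479, minus strand: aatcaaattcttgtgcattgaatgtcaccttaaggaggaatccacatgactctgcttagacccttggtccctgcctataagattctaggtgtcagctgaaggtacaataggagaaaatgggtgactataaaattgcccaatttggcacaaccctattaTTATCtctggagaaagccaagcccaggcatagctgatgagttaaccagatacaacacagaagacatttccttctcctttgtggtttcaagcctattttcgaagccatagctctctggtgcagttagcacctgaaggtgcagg
Cpa3, chr3:20242132-20242431, minus strand: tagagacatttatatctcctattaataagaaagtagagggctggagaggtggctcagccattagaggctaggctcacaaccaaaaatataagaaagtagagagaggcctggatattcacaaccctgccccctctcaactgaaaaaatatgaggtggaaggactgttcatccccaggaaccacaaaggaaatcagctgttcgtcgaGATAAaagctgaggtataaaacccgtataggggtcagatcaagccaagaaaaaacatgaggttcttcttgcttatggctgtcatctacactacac
The motif occurred 3 times in the Ms4a2 window and 1 time each in those of Prss34, Fcer1a and Cpa3, and these letters were not found in that of Mcpt8. RefSeq promoters were found for 9 of the 10 genes, 10 windows in all, and 7 windows held the motif. Of 32851 promoter windows of the same length, 25.4% held it. Among genes that did not pass the threshold, Cma1 and Il1rl1 had it, and the windows of Hdc and Gzmb did not. GATAA was not the only motif searched in these windows. Another motif, held by 16.8% of all promoter windows, was found for Cma1, Cpa3, Fcer1a, Gzmb, Mcpt8 and Il1rl1. It was not found for Hdc, Ms4a2 or Prss34. The share of windows with GATAA therefore does not single that motif out. A match is a string of letters and no measure of binding.

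Prss34, which encodes a tryptase-like protease of basophils (chromosome 17, 25435338 to 25437106, mm9), had normalised read counts of 2918 and 2867 in WT and 1216 and 1199 in KO. The replicates of each genotype were close and the genotypes far apart. Its log2 fold change, on the log2(normalised read count + 1) scale, was -1.26 ± 0.07 (SE; limma adjusted p = 0.00117), with -1.26 in both pairs of same-numbered libraries. It was the only one of the 10 genes that passed the threshold under each of 12 alternative analyses.

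Mcpt8, the basophil protease gene of the chymase locus (chromosome 14, 56700999 to 56704034), read 1772 and 1890 in WT and 1136 and 1378 in KO. The libraries of the genotypes did not overlap, and KO reached 68.7% of the level in WT. On the log2 scale the difference was -0.55 ± 0.11 (limma adjusted p = 0.0228). The call was lost without WT replicate 1 (adjusted p = 0.0843) and without WT replicate 2 (0.114).

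Ms4a2, the beta chain of the IgE receptor (chromosome 19, 11691682 to 11698133), read 670 and 687 in WT and 395 and 289 in KO. KO was 50.4% of WT. The log2 difference was -0.76 between the first replicates and -1.25 between the second ones. The estimate was -1.003 ± 0.17 (limma adjusted p = 0.0144), and the call was lost without WT replicate 1 (0.0693) or 2 (0.0704).

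Fcer1a, the IgE-binding alpha chain (chromosome 1, 175151401 to 175157360), was scarce, at 80.3 and 54.9 in WT and 28.04 and 24.8 in KO. These values rest on 62, 45, 37 and 30 reads, and the 2 genotypes did not overlap. The log2 fold change was -1.30 ± 0.34 (limma adjusted p = 0.0441), a call that was lost without any 1 of the 4 libraries (adjusted p = 0.0577 to 0.241). DESeq2 (0.0606), limma-voom (0.0524) and a fit with no filter (0.0657) did not call it either. In reads alone, the rate in KO was 0.376 of that in WT (95% exact interval 0.273 to 0.516), an interval that covers counting error only.

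Cpa3, the carboxypeptidase A gene of mast cell and basophil granules (chromosome 3, 20115514 to 20142080), changed least of the 5. It read 3937 and 3615 in WT and 2951 and 3136 in KO, a log2 fold change of -0.31 ± 0.07 (limma adjusted p = 0.0306). The genotypes did not overlap, but the call was lost without WT replicate 1 (0.196), WT replicate 2 (0.0783) or KO replicate 1 (0.0505).

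**Figure D1:**
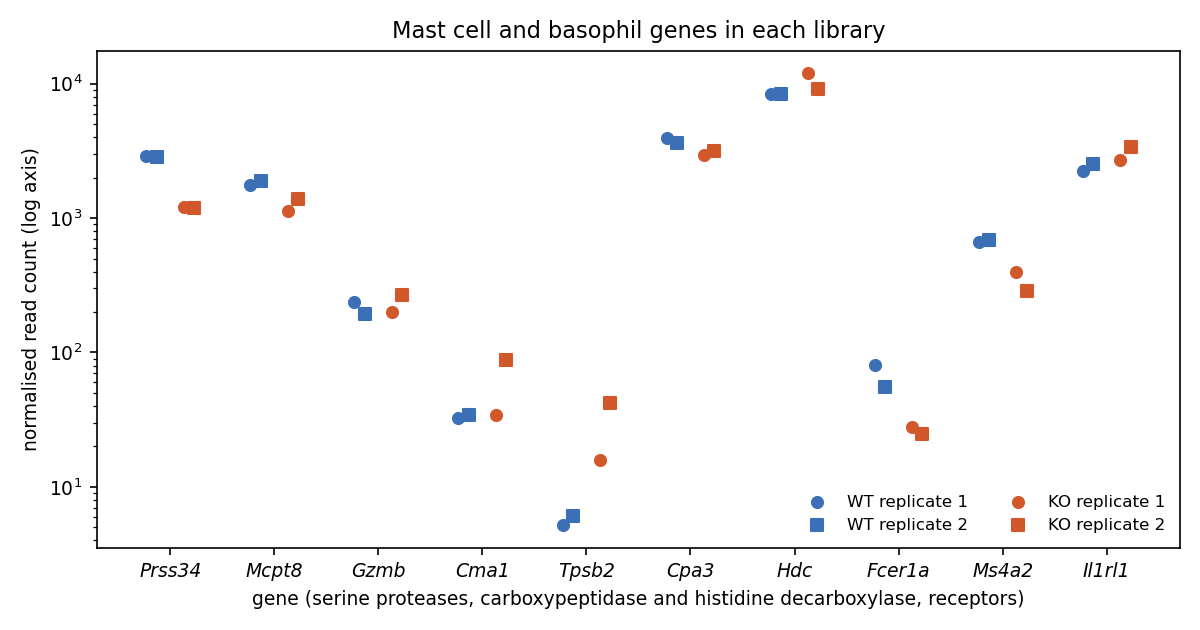
Normalised read count (log axis) of each of the 10 genes in the 4 libraries, WT in blue and KO in orange, replicate 1 as circles and replicate 2 as squares. Prss34, Mcpt8, Ms4a2, Fcer1a and Cpa3 have both KO points below both WT points, and Tpsb2 spans 5.18 to 42.1.

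Hdc, which encodes the enzyme that makes histamine (chromosome 2, 126419403 to 126444401), had 8337 and 8368 in WT and 11949 and 9150 in KO. Both KO values lay above WT, KO replicate 1 farther than KO replicate 2. The log2 fold change was 0.32 ± 0.12 (limma adjusted p = 0.106). DESeq2 called Hdc higher (adjusted p = 0.0217), as did limma with the replicate block (0.049) and without KO replicate 2 (0.00155).

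Il1rl1, the receptor for interleukin-33 (chromosome 1, 40486449 to 40522259), read 2238 and 2537 in WT and 2717 and 3396 in KO. Its log2 fold change of 0.35 ± 0.12 missed the threshold (limma adjusted p = 0.0927). DESeq2 (adjusted p = 0.0311), limma with the replicate block (0.0173) and the fit without KO replicate 1 (0.0114) called it higher. Its neighbours on the chromosome encode both chains of the interleukin-18 receptor. Il18r1, which begins 0.137 kb after Il1rl1, rose by 0.64 ± 0.15 (limma adjusted p = 0.0365; 636 and 574 in WT, 820 and 1076 in KO). Il18rap rose from 2355 and 2540 to 5045 and 5441 (1.10 ± 0.07, limma adjusted p = 0.0013). The Il18r1 call was lost without WT replicate 1 (0.104), WT replicate 2 (0.154) or KO replicate 2 (0.0585) and with limma-voom (0.0591).

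Gzmb, the granzyme B gene (chromosome 14, 56877694 to 56881097), is expressed in cytotoxic lymphocytes as well as in mast cells. It read 236 and 193 in WT and 201 and 267 in KO, so the genotypes overlapped. Its log2 fold change was 0.12 ± 0.21 (limma adjusted p = 0.724). Between replicates 1 the difference was -0.23 and between replicates 2 it was 0.47.

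Cma1 (chromosome 14, 56560287 to 56563498) read 32.4 and 34.1 in WT and 34.1 and 88.3 in KO. KO replicate 1 matched WT, and KO replicate 2 alone was high. The log2 fold change of 0.71 ± 0.49 did not pass the threshold (limma adjusted p = 0.338), and was 0.04 without KO replicate 2 and 1.38 without KO replicate 1 (adjusted p = 0.0448).

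Tpsb2 (chromosome 17, 25503277 to 25505037) had 4 and 5 reads in WT and 21 and 51 in KO, or normalised read counts of 5.18, 6.10, 15.9 and 42.1. It passed the filter on low values through the KO libraries alone, so that its presence among the tested loci already implied a difference. The log2 fold change was 2.03 ± 0.60 (limma adjusted p = 0.0613), and 1.35 without KO replicate 2. In pooled reads the rate in KO was 4.81 times that in WT (95% exact interval 2.40 to 10.9). That interval covers counting error only, and neither the selection by the filter nor the spread between libraries. The adjusted p was 0.0299 without KO replicate 1 and 0.049 with the replicate block, with the same filter.

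**Figure D2:**
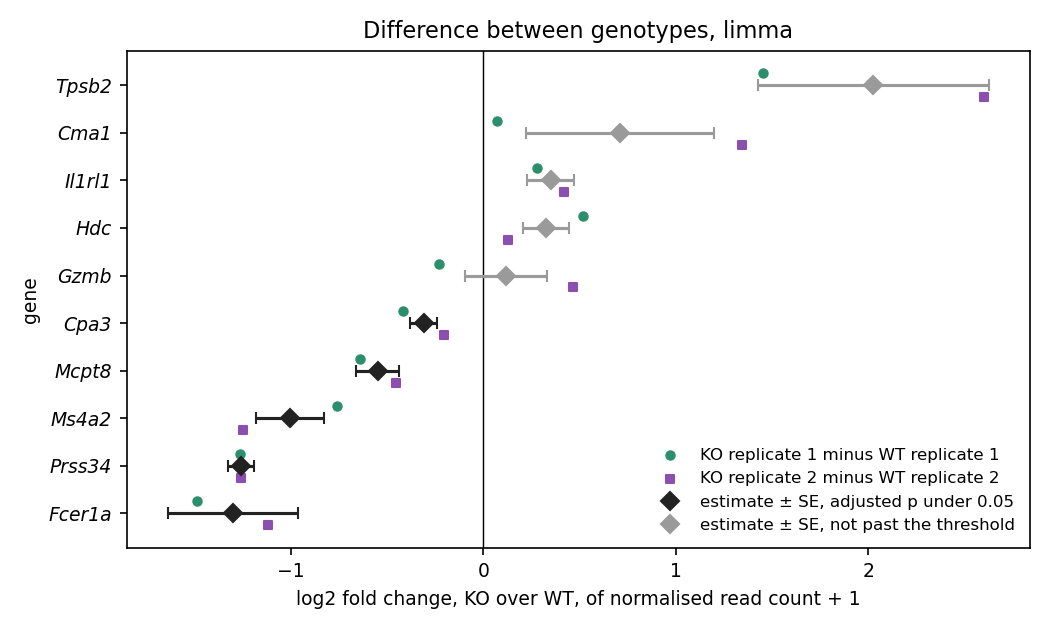
Log2 fold change of KO over WT for each of the 10 genes, with diamonds and bars for the limma estimate ± SE (black where the adjusted p was under 0.05, grey otherwise) and small symbols for the differences of same-numbered libraries. The estimates run from -1.30 for Fcer1a to 2.03 for Tpsb2, and the pair differences of Prss34 are both -1.26.

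The filter on low values, at least 10 in at least 2 libraries, kept all 10 genes, 1 of them (Tpsb2) through KO alone. Both KO libraries lay below both WT libraries in 5 genes and above them in 3, so 8 of 10 did not overlap. Among all tested loci 66.1% did not overlap, 33.6% with KO below and 32.5% with KO above.

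Levels of different genes were compared as CPM (reads scaled to a common library size) per kb of the longest GENCODE transcript, an approximation because the annotation used for counting is not given. In WT the order was Hdc (57.7 ± 0.0798, SD, n = 2), Cpa3 (43.1 ± 2.77), Prss34 (39.2 ± 0.642) and Mcpt8 (36.2 ± 1.51), followed by Il1rl1 (7.44 ± 0.629), Ms4a2 (4.69 ± 0.0646) and Gzmb (2.47 ± 0.360). Fcer1a (1.12 ± 0.302), Cma1 (0.504 ± 0.0170) and Tpsb2 (0.0723 ± 0.00803) were lowest. In this per-length order no neighbouring genes had overlapping WT values. In KO Mcpt8 (23.7 ± 3.25) stood above Prss34 (15.6 ± 0.148), and Gzmb (2.57 ± 0.513) overlapped Ms4a2 (2.26 ± 0.494). In KO the values of Tpsb2 (0.355 ± 0.227) overlapped those of Cma1 (0.887 ± 0.556) and of Fcer1a (0.418 ± 0.0365). The alpha chain of the IgE receptor was thus the scarcer of the receptor's 2 specific chains in both genotypes.

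Ratios within a library do not depend on how libraries were scaled. Cpa3, the gene divided by here, was itself called lower in KO (80.6% of the WT mean). Its fall raises every KO ratio below. For every 100 Cpa3 reads there were 74.1 and 79.3 Prss34 reads in WT and 41.2 and 38.2 in KO. By the same measure Ms4a2 had 17.01 and 19.0 in WT and 13.4 and 9.21 in KO. Mcpt8 had 45 and 52.3 in WT and 38.5 and 43.9 in KO, closer together than for Prss34. Hdc went the other way, with 212 and 231 reads per 100 Cpa3 reads in WT and 405 and 292 in KO. Il1rl1 did likewise, at 56.8 and 70.2 against 92.1 and 108. These ratios are a description and were not tested.

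In the tryptase locus on chromosome 17, Prss34 lies 66.2 kb from Tpsb2, and the genes between and beside them were read out of a window of 100 kb that was chosen after their values were seen. Prss28, a tryptase-family gene 8.48 kb from Prss34, was at 40.1 and 36.6 in WT and 11.4 and 8.25 in KO, and fell with it (-1.88 ± 0.41, limma adjusted p = 0.0268). That call was lost without WT replicate 1 (0.14), WT replicate 2 (0.108) or KO replicate 2 (0.0528). Tpsab1, the other mast cell tryptase, had 7.77 and 0 in WT and 12.1 and 23.9 in KO. Like Tpsb2, it passed the filter through the KO libraries alone, so nothing is read from its test. It had 6 and 0 reads in WT and 16 and 29 in KO. In pooled reads its rate in KO was 4.51 times that in WT (95% exact interval 1.92 to 12.9). That interval covers counting error only, and neither the selection by the filter nor the spread between libraries. The merged row of Cacna1h and Tpsg1 had 79.0, 132, 321 and 144 (1.07 ± 0.44, limma adjusted p = 0.132). That fold change was 0.49 without KO replicate 1 and 1.65 without KO replicate 2, where it was called (adjusted p = 0.0178).

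In the chymase locus on chromosome 14, Mcpt4 had 0 reads in both WT libraries and 13 and 23 in KO, normalised read counts of 9.85 and 19.0. In reads its rate in KO was at least 5.57-fold higher, the lower limit of the exact 95% interval, which covers counting error only. It did not pass the filter, and it is named here after its values were seen. Ctsg, the neutrophil cathepsin G gene 14.7 kb from Mcpt8, was at 30942 and 30366 in WT and 28062 and 27171 in KO (-0.15 ± 0.04, limma adjusted p = 0.0582, and 0.0309 with DESeq2). Mcpt1, Mcpt2 and Cma2 stood at or under 4.88 in every library, and a difference was not detectable at this depth. The Ms4a3 gene beside Ms4a2 had a log2 fold change of 0.02 ± 0.12 (limma adjusted p = 0.909). Ms4a6b, 86.8 kb from Ms4a2, was at 1062 and 1031 in WT and 411 and 732 in KO (-0.93 ± 0.26, limma adjusted p = 0.0528). For Ms4a6d, which lies between Ms4a6b and Ms4a2, the genotypes overlapped.

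**Figure D3:**
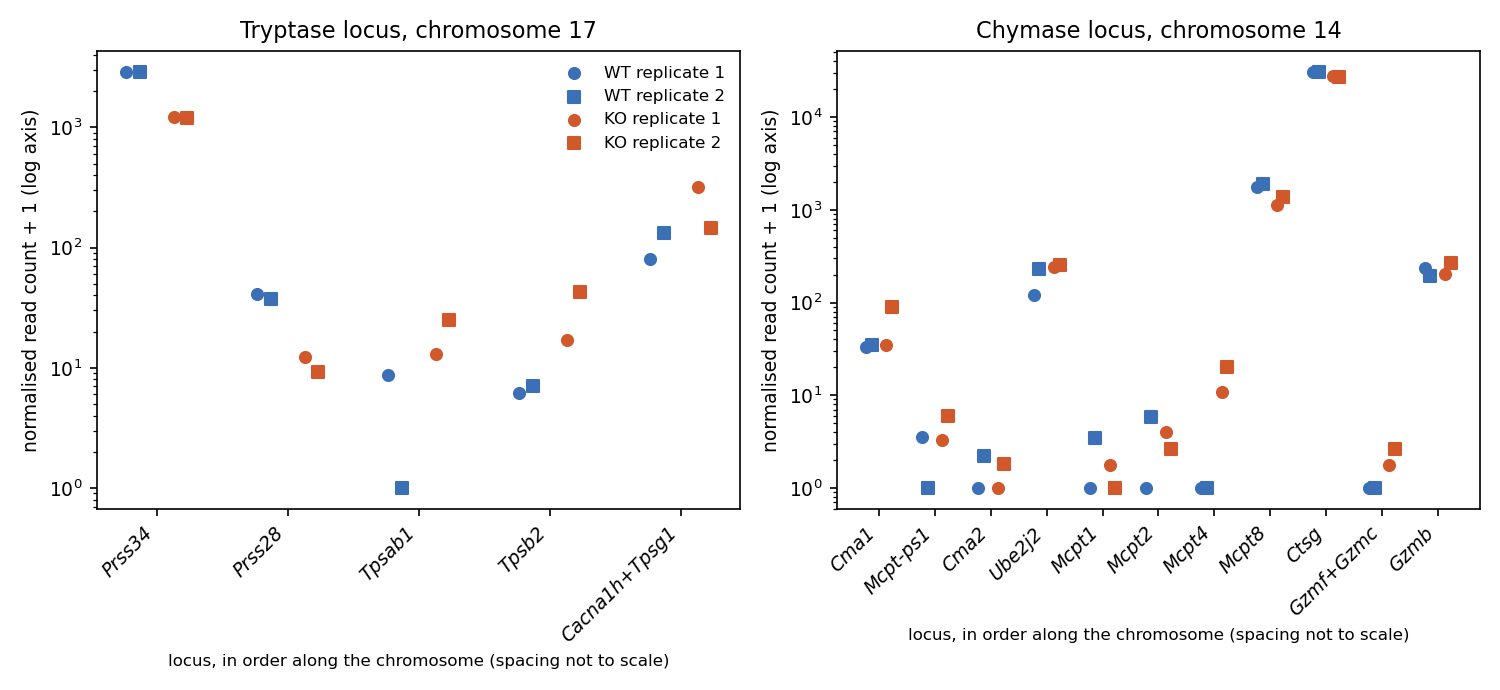
Normalised read count + 1 (log axis) of every single-locus row between Prss34 and Tpsg1 on chromosome 17 (left) and between Cma1 and Gzmb on chromosome 14 (right), in chromosomal order. Symbols are as in the plot of the 10 genes by library, and a point at 1 on the axis is a count of 0. Prss34 and Prss28 are lower in KO, while Tpsab1, Tpsb2 and Mcpt4 are higher in both KO libraries at low counts.

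Other genes of these cells were taken from 10 further lists with 139 genes, of which 135 were matched. Beside the counts of calls below, 20.9% of all tested loci were called, 11.9% higher and 8.97% lower. In the list of other mast cell and basophil markers 15 of 17 were matched, 7 were tested and 0 were called by limma. At an unadjusted p under 0.05 there were 2, and DESeq2 and the fit with no filter called 1 each. The log2 fold change was positive for 5 of the 7 and negative for 2, with a median of 0.39. Tpsab1, among the 5, passed the filter through the KO libraries alone, so the filter favoured its direction. Its part in this count and median is therefore no evidence of a rise. Another of the 5 is the row of Tpsg1 merged with Cacna1h. Cd200r3, an activating receptor of basophils, was at 79.0 and 90.3 in WT and 37.9 and 9.90 in KO (-2.05 ± 0.61, limma adjusted p = 0.0623, and 0.0405 with DESeq2). Its fold change was -2.97 without KO replicate 1 (adjusted p = 0.00395) and -1.14 without KO replicate 2 (0.0578), and the replicate block called it (0.0367). The prostaglandin E receptor gene Ptger3 was at 571 and 583 in WT and 612 and 940 in KO (0.39 ± 0.21, limma adjusted p = 0.218, and 0.70 and called without KO replicate 1, adjusted p = 0.00986). Il4, a cytokine gene of basophils and mast cells, was at 35.0 and 9.76 in WT and 26.5 and 75.9 in KO, and the genotypes overlapped. The vesicular amine transporter gene Slc18a2, which loads histamine into granules, was at 1162 and 1282 in WT and 1229 and 1145 in KO (-0.04 ± 0.09, adjusted p = 0.783).

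Signalling genes downstream of the IgE receptor moved in both directions: 3 of 16 rose and 3 fell, with a median log2 fold change of 0.07. The shared gamma chain gene Fcer1g rose from 4490 and 4504 to 6771 and 7291 (0.64 ± 0.06, limma adjusted p = 0.00224), opposite to the alpha and beta chains. Of the adaptor genes, Lat fell by 0.61 and Lat2 by 0.46 on the log2 scale, as did the kinase gene Fyn by 0.46 (limma adjusted p = 0.0286, 0.0194 and 0.0276). Lyn (0.31 ± 0.05) and Lcp2 (0.36 ± 0.06) rose. Without WT replicate 1 or WT replicate 2, 1 of the 16 was called, and all 5 of Lat, Lat2, Fyn, Lyn and Lcp2 lost their calls (adjusted p = 0.0583 to 0.16).

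In the list of cytokine receptors and their signalling, the share called was near the 20.9% of all tested loci. Of its 20 genes 4 rose and 0 fell, with a median of 0.15. Besides the interleukin-18 receptor chains, these were Csf2ra, the receptor chain specific for GM-CSF (0.58 ± 0.05, limma adjusted p = 0.00224), and the kinase gene Jak2 (0.27 ± 0.05, limma adjusted p = 0.0215). The Jak2 call was lost without WT replicate 1 (0.124) or 2 (0.115). The interleukin-3 receptor gene Il3ra, which serves the main growth factor of basophils, was at 1175 and 1192 in WT and 1188 and 1230 in KO. Without WT replicate 1 or WT replicate 2, 2 of the 20 were called.

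Of 15 transcription factor genes 6 rose and 0 fell, with a median of 0.13. Bhlhe40 rose by 1.28 ± 0.12, Nfil3 by 1.05 ± 0.09, Spi1, the gene of PU.1, by 0.40 ± 0.06 and Lmo4 by 0.40 ± 0.05, while Gata1 (0.39 ± 0.08) and Ikzf1 (0.30 ± 0.05) completed the 6. Gata2, which mast cells and basophils require, was at 2541 and 2615 in WT and 1935 and 2306 in KO (-0.29 ± 0.10, limma adjusted p = 0.0855). Upper-quartile scaling (0.0485) and the fit without KO replicate 2 (0.0115) called Gata2 lower. Mitf, the regulator of mast cell genes, was at 403 and 370 in WT and 439 and 330 in KO (-0.02 ± 0.18, adjusted p = 0.949). The calls of Gata1 (0.129), Ikzf1 (0.1) and Lmo4 (0.0513) were lost without WT replicate 1 and that of Spi1 (0.0561) without WT replicate 2, and 3 of the 15 were called without WT replicate 1 and 10 without KO replicate 2.

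Genes for the synthesis, storage and release of mediators had the most calls of the lists that describe function: 12 of 20 rose and 0 fell, with a median of 0.34. The 5-lipoxygenase gene Alox5, which starts leukotriene synthesis, rose by 0.96 ± 0.08 and its activating protein gene Alox5ap by 0.64 ± 0.12. The cyclooxygenase genes Ptgs2 (0.91 ± 0.11) and Ptgs1 (0.55 ± 0.10) rose too. Without WT replicate 1 or WT replicate 2, 7 of the 20 were called, and the calls of Alox5ap (0.0792 without WT replicate 1) and Ptgs1 (0.0581 without WT replicate 2) were among those lost. Most of these genes are also expressed in neutrophils, monocytes or eosinophils.

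Markers of other cells were read as well. The Lin- selection is meant to remove mature blood cells, lymphocytes included, and the labels do not list its antibodies. In the eosinophil list 6 of 10 tested genes rose and 0 fell, and the summed value of the list went from 164426 and 165686 in WT to 329825 and 331599 in KO. Prg2, the major basic protein gene, rose by 1.14 ± 0.04, Epx by 0.78 ± 0.08, Alox15 by 1.78 ± 0.22 and the merged row of Ear2 and Ear3 by 1.30 ± 0.26. The Ear genes are near-identical, and how reads were divided between them is uncertain. That call was lost without WT replicate 1 (adjusted p = 0.0815) or 2 (0.0592). Cpa3, Hdc and Il1rl1 can be expressed in eosinophil progenitors, and the part of those cells in their values was not tested.

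In the list of NK and cytotoxic T markers, cells that also make Gzmb, 3 of 14 fell and 0 rose. That share is near the 20.9% of all tested loci called in either direction. Il2rb fell by 0.93, Eomes by 0.97 and Ccl5 by 1.14 on the log2 scale, and DESeq2 did not call Eomes (adjusted p = 0.0841) or Ccl5 (0.0729). The summed value came to 9081 and 8254 in WT and 7648 and 6493 in KO, with no marker at 0 in all libraries. Most of that sum came from Nkg7, at 7061 and 6251 in WT and 6245 and 5241 in KO (-0.22 ± 0.10, limma adjusted p = 0.177). Nkg7 was called lower without KO replicate 1 (0.0279) and with the replicate block (0.0348). Without WT replicate 2, 0 of the 14 were called, and without KO replicate 2 or WT replicate 1 there was 1, as with DESeq2 and with no filter. The part of these cells in the Gzmb values was not tested.

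Group 2 innate lymphoid cells and regulatory T cells also carry Il1rl1. Of their 10 markers 7 were tested and 0 were called, with 2 at an unadjusted p under 0.05 and 1 called by DESeq2. Their sum came to 4577 and 4526 in WT and 4241 and 4359 in KO, most of it from a merged row with Foxp3 and its neighbours (-0.19 ± 0.06, limma adjusted p = 0.0703). Il17rb was at 695 and 742 in WT and 885 and 994 in KO (0.39 ± 0.11, limma adjusted p = 0.0543), while Il5 and Areg stood at or under 5.31 in every library.

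Of 6 tested genes in the list for neutrophil primary granules, 1 rose and 0 fell. The gene that rose was Cebpe, which encodes a transcription factor and no granule protein (0.63 ± 0.05, limma adjusted p = 0.00206). The granule protein genes Mpo (-0.30), Elane (-0.17), Prtn3 (-0.17) and Ctsg (-0.15) had negative log2 fold changes and did not pass. Without KO replicate 1 Mpo (-0.43, adjusted p = 0.00833) and Elane (-0.33, 0.00547) were called lower, and DESeq2 (0.00928), upper-quartile scaling (0.0483) and the replicate block (0.0189) called Mpo. Upper-quartile scaling called Prtn3 (0.0455). The sum of the neutrophil list, Cebpe and Ms4a3 included, came to 755636 and 690524 in WT and 658426 and 563783 in KO. Most of it came from Mpo, at 525289 and 474770 in WT and 441863 and 370120 in KO. Of 8 plasmacytoid dendritic markers 3 fell: Irf7 (-1.57 ± 0.11), Bst2 (-1.499 ± 0.09) and Tcf4 (-0.30 ± 0.08). The Tcf4 call was lost without WT replicate 1 (adjusted p = 0.133) or 2 (0.172). The sum of the dendritic list came to 18838 and 20498 in WT and 14624 and 14316 in KO. Much of that fall came from Irf7 (2526 and 2870 in WT, 983 and 840 in KO) and Bst2 (2195 and 2212, 820 and 740). Siglech was at 326 and 451 in WT and 228 and 485 in KO, and the genotypes overlapped (limma adjusted p = 0.719). The log2 fold change was negative for 7 of the 8 and positive for 1, a row of Ccr9 merged with its neighbours (0.17 ± 0.06). Irf7 and Bst2 are also induced by interferon.

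**Figure D4:**
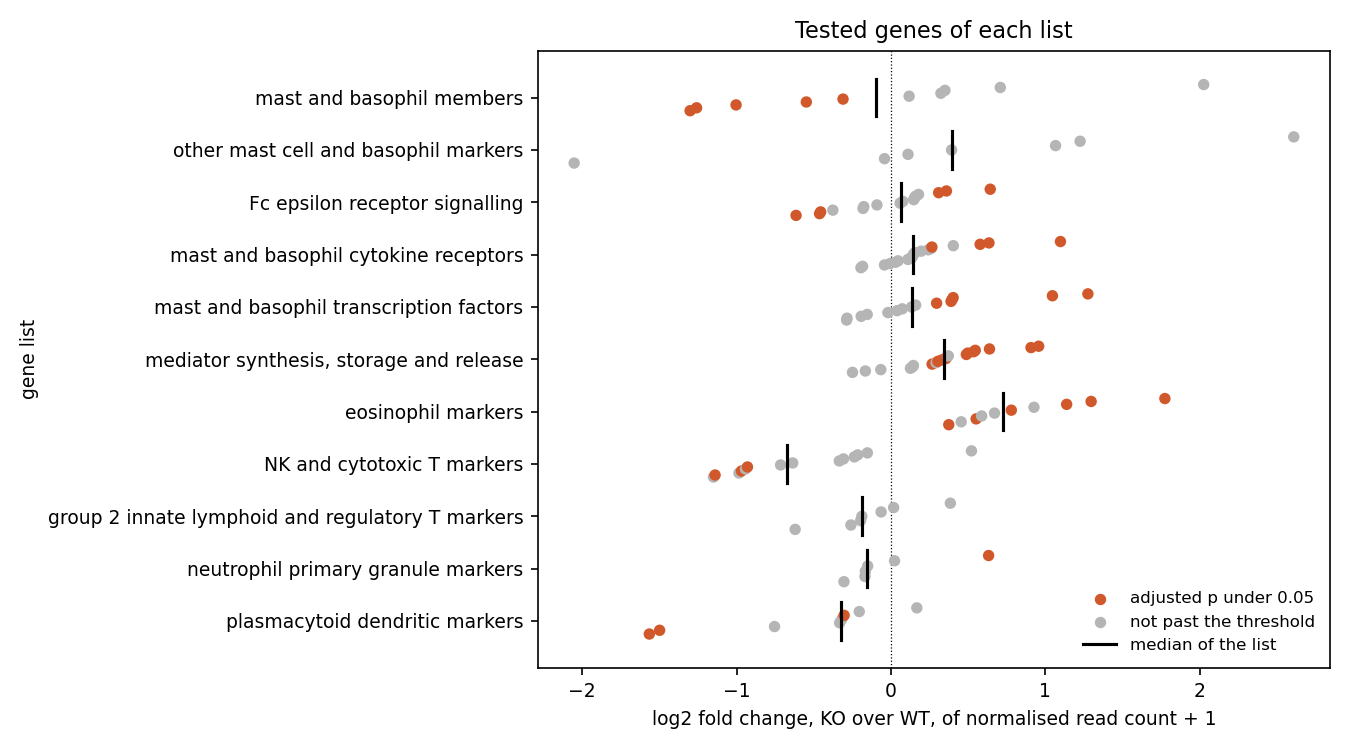
Log2 fold change of KO over WT for each tested gene of the 10 mast cell and basophil genes (top row) and of the 10 further lists, orange where the limma adjusted p was under 0.05, with a black bar at the median of each list. The eosinophil median is 0.73, the NK and cytotoxic T median -0.68, and the top row runs from -1.30 to 2.03.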

How the data were processed

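RNA sequencing measured transcripts in 2 WT and 2 KO libraries of Lin-Kit+ marrow cells, grouped by their titles. Reads were aligned with STAR 2.3.1t to mm9, per the submitters' processing notes. Not given in the sources used here: counter, annotation, strand handling and scaling tool. The deposited signal is a read count that carries a scaling factor for its library. Dividing each column by its lowest non-zero entry (1.30, 1.22, 0.758 and 0.825) gave whole reads for 100% of values, to a tolerance of 0.001. A count of 0 allows up to 3 reads. Of 22849 rows, 4893 joined 2 neighbouring loci and were left out; those naming 1 of the 10 genes held at most 15 reads in a library.

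The filter asked for 10 or more in 2 or more libraries, and the test was limma 3.58.1 (R 4.3.3; variance trended on the mean) of log2(value + 1), adjusted by Benjamini-Hochberg over all 13764 loci at 0.05. Fold changes on this scale understate low genes. The fit was tested on simulated data. On recovered reads edgeR 4.0.16 (quasi-likelihood, TMM) called 2839 loci, against 2875 with limma. Other alternatives were DESeq2 1.42.0, limma-voom, RLE and upper-quartile scaling, a pseudocount of 5, no filter, a replicate block and leaving out each library. Named genes were the 10 genes, Asxl1 and, per further list, the 4 called genes that changed most, or failing any call the 2 of lowest p. Others, among them Prss28, Mcpt4, Tpsab1, Slc18a2, Il3ra, Lyn, Lcp2, Gata1, Gata2, Mitf, Ikzf1, Mpo, Elane, Prtn3, Ctsg, Ms4a3, Ms4a6b, Cd3d, Cd3e, Cd8a, Nkg7, Il4 and Ptger3, were chosen after their values were seen. The 10 genes and all lists were chosen with earlier results of these data known. Motifs were searched on both strands.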

Additional observations from a re-analysis of the deposited data

How the results depend on the processing

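Prss34 kept its direction and its call under all 12 alternatives (log2 fold change -1.31 to -1.25). Mcpt8 and Ms4a2 kept theirs under 10, Cpa3 under 9 and Fcer1a under 5, each with the same direction throughout. A fit without a WT library takes its spread from the KO pair alone. Without a replicate, 1 to 4 of the 10 genes were lower and 0 to 3 higher, and over all loci 266 to 1542 were lower and 603 to 1714 higher. With DESeq2, 2 of the 10 were higher (Hdc and Il1rl1). Some genes that no fit called changed sign. Without a replicate Gzmb ranged from -0.0852 to 0.32, Slc18a2 from -0.11 to 0.0296, Mitf from -0.22 to 0.19 and Ms4a3 from -0.17 to 0.22, and with upper-quartile scaling Il3ra was -0.0226 and Ms4a3 -0.0295. Deviations of same-numbered libraries were weakly correlated over all loci (0.246), and no label ties these libraries. The replicate number also follows the sex transcripts in both genotypes, and the part of sex in this correlation was not tested. With the replicate block 3 of the 10 were higher (Hdc, Il1rl1 and Tpsb2, adjusted p = 0.049, 0.0173 and 0.049) and 5 lower, Tpsb2 having passed the filter through KO alone. With the replicate block, calls in the lists of other markers, innate lymphoid and neutrophil granule genes were 1, 1 and 2. With DESeq2 the calls were 1 of the other markers, 10 of the Fc epsilon list, 1 of the NK list, 1 innate lymphoid and 3 neutrophil granule genes. No filter gave 1 other marker and 1 NK gene. Upper-quartile scaling gave 1901 lower loci over all, 1 innate lymphoid and 4 neutrophil granule genes, with the log2 fold changes moved by -0.05 at the median. Leaving out a replicate gave 0 to 2 other markers, 1 to 8 Fc epsilon, 2 to 6 cytokine receptor, 3 to 10 transcription factor, 7 to 12 mediator, 4 to 9 eosinophil, 0 to 3 NK, 0 to 1 innate lymphoid, 1 to 4 neutrophil granule and 2 to 3 plasmacytoid dendritic genes. Depth limits Tpsb2, Cma1, Fcer1a and Mcpt4, each with at most 107 reads in a library.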
